A study of Homo sapiens with 4 samples.

Results

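The 10 genes described here encode contractile and cytoplasmic actin, the proteins that bind it and a myosin light chain: ACTA2, TAGLN, CNN1, CALD1, MYL9, TPM1, TPM2, ACTB, ACTG1 and PFN1. They were chosen by symbol, as genes of the smooth muscle and actin programme known as targets of serum response factor (SRF), and all 10 were found among the 33538 genes listed for each library. The first 7 are called the smooth muscle type genes below, and the last 3 the cytoplasmic actin genes. Of these 3, PFN1 encodes profilin, a protein that binds actin, and no actin itself. Single-cell RNA sequencing (scRNA-seq) measured them in HCEC 1CT, an immortalised line of human colonic epithelial cells, infected with an shRNA against APC (shAPC) or with a scrambled shRNA (shScr). Cells were taken at day 3 and day 7 after transduction, which gave 4 libraries, 1 for each shRNA and day. All 4 shared the line, puromycin selection and a medium with EGF at 20 ng/mL, 2% serum, hydrocortisone, insulin, transferrin and selenite. As a model it is limited to 1 line and 1 shRNA against APC, which lowers the transcript and leaves the gene intact. With 1 library per group no difference could be tested against replicates, so each value below carries only its counting error.

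Actin exists as free monomers and as filaments, and myosin pulls on the filaments to make a cell contract. Free actin monomers hold the MRTF cofactors of SRF in the cytoplasm. When monomers are built into filaments, MRTF is released, enters the nucleus and acts with SRF at a short DNA element, the CArG box, in the promoters of actin and contractile genes. Smooth muscle cells and myofibroblasts use the smooth muscle type genes in quantity, whereas the cytoplasmic actins and profilin are used by nearly every cell.

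Promoters are shown for 2 of the genes, because ACTA2 had the highest and ACTG1 the lowest ratio of shAPC to shScr among the members at day 3, and both held matches to the CArG box; the ACTA2 entry is the 1 of its 2 entries that held a match. RefSeq promoters on GRCh38.p14, from 250 bases before to 50 after a start, were matched to 7 of the 10 members, with 12 entries. TAGLN, MYL9 and ACTB had no entry. The ACTA2 entry is chr10:88952724-88953023 on the minus strand and the ACTG1 entry chr17:81512750-81513049, also on the minus strand. Both are printed 5′ to 3′ along the gene, with matches to the CArG box of at most 1 mismatch in capitals.
ACTA2: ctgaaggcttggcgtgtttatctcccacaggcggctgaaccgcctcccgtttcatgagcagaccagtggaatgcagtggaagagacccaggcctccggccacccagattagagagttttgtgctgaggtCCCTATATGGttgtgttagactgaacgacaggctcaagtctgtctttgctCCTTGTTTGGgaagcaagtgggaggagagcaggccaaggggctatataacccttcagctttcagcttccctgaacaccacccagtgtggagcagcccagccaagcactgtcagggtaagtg
ACTG1: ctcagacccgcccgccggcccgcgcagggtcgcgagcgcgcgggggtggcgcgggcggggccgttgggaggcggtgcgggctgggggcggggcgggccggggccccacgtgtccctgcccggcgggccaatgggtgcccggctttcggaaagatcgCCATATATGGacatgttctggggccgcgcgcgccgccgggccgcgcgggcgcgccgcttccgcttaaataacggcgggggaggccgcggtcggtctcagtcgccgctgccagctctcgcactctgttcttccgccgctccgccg
ACTG1 held the only exact match among the 12 entries, CCATATATGG, beginning 94 bases before the start. ACTA2 held a pair of sites with 1 mismatch each, CCCTATATGG at 121 bases and CCTTGTTTGG at 71 bases before the start. Of all 35116 promoters in the table, 454 (1.29%) held an exact match and 6624 (18.9%) a match of at most 1 mismatch, so a near match is common. Besides these, 2 of the 4 CALD1 entries held a near match, and the entries of CNN1, TPM1, TPM2 and PFN1 held none. The element reads the same on either strand. A match of letters is a description of the window and does not show binding.

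Barcodes with 5% or more mitochondrial UMIs were left out, and the minimums of 200 genes and 500 UMIs removed no others. After this, 1116 (shScr) and 788 (shAPC) cells of day 3 remained, with 2600 and 1478 of day 7. They held 28451455 to 39797418 UMIs (distinct molecules) per library. A pair of libraries stood apart: the median shScr day 7 cell held 1330 UMIs against 21029.5 to 49685.5 in the others, and 51.3% of the barcodes deposited for shAPC day 7 failed the mitochondrial limit, where 24.1% to 28.8% failed elsewhere. Of the kept barcodes, 19 were shared by the day 3 libraries and at most 7 by any other pair. Levels are given as CPM, the gene's UMIs over all UMIs of the library, scaled to a common total (1e+06). APC itself stood at 16.1 and 19.1 CPM in shScr at day 3 and day 7 and at 5.52 and 6.61 in shAPC, which was 34.4% and 34.6% of the level in shScr. Of 7 epithelial markers, including EPCAM, CDH1 and KRT8, none reached 20 CPM in any library, and 5 of 6 colonic lineage markers were at 0 in each. Of 9 fibroblast markers, including VIM and COL1A1, 7 to 9 reached 20 CPM, with a summed level of 6015 to 8008 CPM. Of 6 mature smooth muscle markers, including MYH11 and DES, none reached 20 CPM, and their summed level was 6.11 to 15.6 CPM. Endothelial and immune markers together stayed near 0, with at most 46 UMIs of either list in a library.

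The 10 genes were present throughout and took 0.858% of all UMIs with shScr and 0.803% with shAPC at day 3, and 0.901% and 0.740% at day 7. Because each molecule is counted once from its 3′ end, levels can be set side by side between genes without a correction for length, though not between transcript forms of 1 gene. ACTB, ACTG1, PFN1 and TPM2 lay above 900 CPM in all 4 libraries. MYL9, TPM1, CALD1 and TAGLN lay between 218 and 443 CPM, ACTA2 between 37.1 and 71.8 CPM, and CNN1 at 2.18 CPM or less. The share taken by the cytoplasmic actin genes was 0.511% in shAPC day 7 and 0.577% to 0.652% in the others, and that of the smooth muscle type genes was 0.227% to 0.249% in all 4.

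**Figure D1:**
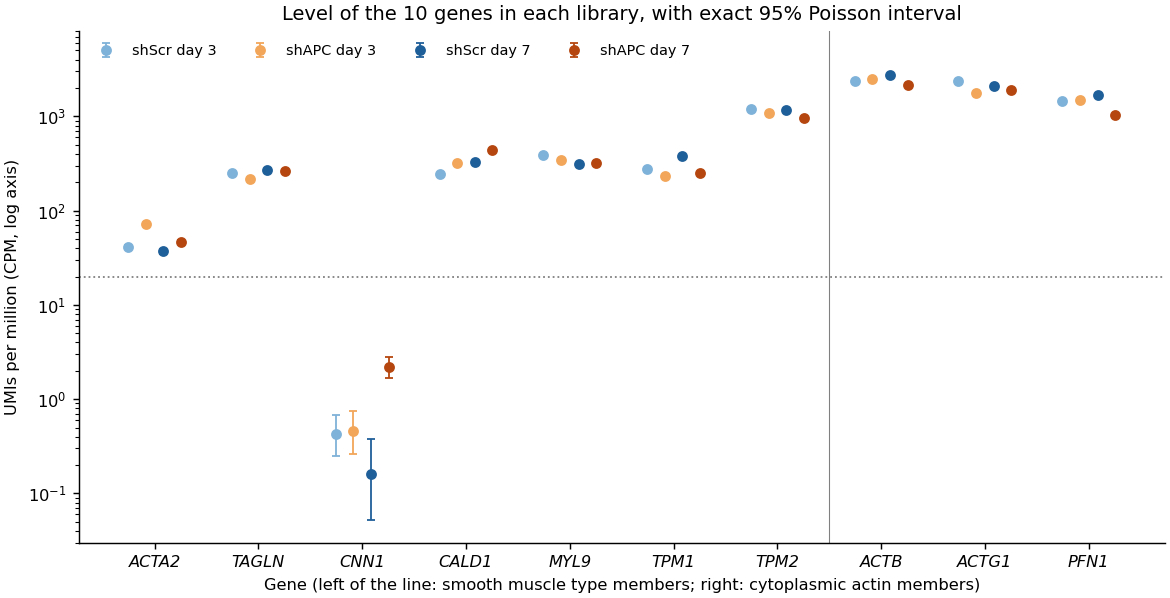
Level of the 10 genes in each of the 4 libraries, as CPM on a log axis; points are libraries, bars exact 95% Poisson intervals, often smaller than the point, and the dotted line is 20 CPM. ACTB and ACTG1 lie highest, CNN1 lies below the dotted line in every library, and the level of ACTA2 is highest in shAPC day 3 at 71.8 CPM.

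ACTA2 encodes the actin of smooth muscle and myofibroblasts, and lies on chromosome 10 at 88935074 to 88991339 (hg38, minus strand). It stood at 40.7 CPM in shScr day 3, 71.8 in shAPC day 3, 37.1 in shScr day 7 and 46.4 in shAPC day 7, from 1158 to 2509 UMIs. The log2 ratio of shAPC to shScr was 0.82 (95% counting interval 0.73 to 0.91) at day 3 and 0.32 (0.21 to 0.44) at day 7. It was thus higher with shAPC on both days, except that the day 7 ratio turned to -0.15 with the mean over cells and to -0.42 in cells under 2000 UMIs alone, and the highest library was shAPC day 3. FAS and STAMBPL1 overlap ACTA2 on the opposite strand, and the strand setting of the counting is not given in the sources used here. FAS stood at 18.1, 41.1, 20.7 and 26.8 CPM in the same order of libraries, and STAMBPL1 at 16.5, 20.7, 18.2 and 17.5 CPM; their part in the ACTA2 level was not tested. Without the barcodes shared between libraries the day 3 ratio was 0.74.

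TAGLN encodes transgelin, an actin-binding protein of smooth muscle, on chromosome 11 at 117199370 to 117207464. Its level at day 3 was 253 CPM in shScr and 218 CPM in shAPC, and at day 7 it was 273 and 262 CPM. The lowest library was shAPC day 3, with a log2 ratio to shScr of -0.21 (-0.26 to -0.17), and at day 7 the ratio was -0.059 (-0.10 to -0.014), which turned above 0 relative to the median of all genes. CALD1, which encodes caldesmon, a filament-binding protein that restrains myosin, lies on chromosome 7 at 134744252 to 134970729. Its level was 246 CPM in shScr day 3, 317 in shAPC day 3, 327 in shScr day 7 and 443 in shAPC day 7. CALD1 was higher with shAPC on both days, by a log2 ratio of 0.37 (0.33 to 0.40) at day 3 and 0.44 (0.40 to 0.48) at day 7, and higher at day 7 with either shRNA. At day 3 this ratio came to -0.01 with TMM factors, while at day 7 it lay between 0.28 and 0.67 under all 15 alternatives.

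CNN1 encodes calponin 1, a marker of differentiated smooth muscle, on chromosome 19 at 11538767 to 11550323. It was rare: 17 UMIs in shScr day 3, 16 in shAPC day 3, 5 in shScr day 7 and 62 in shAPC day 7. As CPM these were 0.427, 0.458, 0.16 and 2.18. The shAPC day 7 library lay above the other 3, with an interval of 1.67 to 2.79 CPM that met none of theirs. At day 7 the log2 ratio of shAPC to shScr was 3.77, with a wide interval of 2.47 to 5.44, and at day 3 it was 0.10 (-0.98 to 1.17). The UMIs of shAPC day 7 came from 44 cells (2.98% of cells, exact binomial interval 2.17 to 3.98), of which 37 held 1 UMI and the highest 10. That share is not thinned and moves with depth; at 2000 UMIs per cell 7 of 1087 cells held CNN1 (0.644%, 0.259 to 1.32), and at most 1 cell of each other library. In shScr day 3, 11 of the 17 UMIs came from 1 cell. The barcodes removed by the mitochondrial limit, which enter only the alternatives with a wider limit or none, held 50 CNN1 UMIs in shAPC day 7 and 0 in shScr day 7. CNN1 stayed below 20 CPM and is left out of all counts of genes below. No cell type that should lack these genes was present to give the level of free RNA, so the share of cells with a UMI has no background of that kind.

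MYL9 encodes a regulatory light chain of myosin II, the chain that myosin light chain kinase phosphorylates, on chromosome 20 at 36541497 to 36551447. Its 4 levels were close: 387 CPM in shScr day 3, 348 in shAPC day 3, 313 in shScr day 7 and 321 in shAPC day 7. The log2 ratio of shAPC to shScr was -0.15 (-0.19 to -0.12) at day 3. At day 7 it was 0.037 with an interval that included 0 (-0.0044 to 0.078), and it turned below 0 with the mean over cells.

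TPM1 and TPM2 encode tropomyosins, which lie along the actin filament and set the access of myosin. TPM1, on chromosome 15 at 63042620 to 63071915, stood at 274 CPM in shScr day 3, 232 in shAPC day 3, 378 in shScr day 7 and 251 in shAPC day 7. The shScr day 7 library was the highest, and TPM1 was lower with shAPC on both days, by a log2 ratio of -0.24 (-0.28 to -0.20) and then -0.59 (-0.63 to -0.55). TPM2, on chromosome 9 at 35681992 to 35690056, was the most abundant smooth muscle type gene, with 1191 CPM in shScr day 3, 1079 in shAPC day 3, 1159 in shScr day 7 and 963 in shAPC day 7. It was lower with shAPC on both days, by a log2 ratio of -0.14 (-0.16 to -0.12) and -0.27 (-0.29 to -0.24). The counts do not separate the muscle and non-muscle transcript forms of TPM1, TPM2 and CALD1.

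ACTB and ACTG1 encode the beta and gamma actins of the cytoplasm. ACTB lies on chromosome 7 at 5526409 to 5563902 and stood at 2364 CPM in shScr day 3, 2519 in shAPC day 3, 2717 in shScr day 7 and 2147 in shAPC day 7. Its log2 ratio of shAPC to shScr was 0.092 (0.079 to 0.11) at day 3, which turned below 0 with TMM factors, DESeq2 size factors and the mean over cells, among other alternatives, and -0.34 (-0.35 to -0.32) at day 7. ACTG1 lies on chromosome 17 at 81509413 to 81523847. It stood at 2359 CPM in shScr day 3, 1756 in shAPC day 3, 2102 in shScr day 7 and 1919 in shAPC day 7. ACTG1 was lower with shAPC on both days, by a log2 ratio of -0.43 (-0.44 to -0.41) at day 3 and -0.13 (-0.15 to -0.12) at day 7. The actin genes are near copies of each other in their coding sequence, and how reads that match several of them were counted is not given in the sources used here, so their separate levels are uncertain to that extent.

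PFN1 encodes profilin 1, which binds actin monomers and feeds them to growing filaments, on chromosome 17 at 4945652 to 4949061. It stood at 1464 CPM in shScr day 3, 1493 in shAPC day 3, 1703 in shScr day 7 and 1046 in shAPC day 7. The shAPC day 7 library was the lowest. The log2 ratio of shAPC to shScr was -0.70 (-0.72 to -0.68) at day 7, or 61.4% of the level in shScr. At day 3 it was 0.028 (0.011 to 0.045), which turned below 0 with TMM factors, DESeq2 size factors and the mean over cells, among other alternatives. The day 7 ratio was -0.25 (-0.38 to -0.12) in cells under 2000 UMIs alone, which is under 1.5-fold.

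Set against all genes, the 10 did not move as 1 block. At day 3, 5175 genes of at least 20 CPM in either library had a median log2 ratio of 0.28, so most genes read higher in shAPC. The 9 members tested had a median of -0.14. Only ACTA2 was at least 1.5-fold higher (1 of 9, beside 17.1% of all genes tested) and none was at least 1.5-fold lower (beside 1.51%). TMM factors lowered every log2 ratio at day 3 by 0.38 and DESeq2 size factors did so by 0.36, so values relative to the median of all genes are given too. On that scale ACTA2 stood at 0.54 and CALD1 at 0.090, the other 7 lay below the median gene, and ACTG1 at -0.70 was the 1 member past 1.5-fold lower (beside 4.99% of all genes lower and 5.93% higher). Relative values for the others were -0.51 for TPM1, -0.49 for TAGLN, -0.43 for MYL9, -0.42 for TPM2, -0.25 for PFN1 and -0.18 for ACTB. Among all genes 2.86% had a lower ratio than ACTG1 and 92.7% a lower ratio than ACTA2.

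At day 7 the median over 4573 genes was -0.10 and that of the 9 members was -0.13. PFN1 and TPM1 were at least 1.5-fold lower (2 of 9, beside 7.65% of all genes tested), TPM1 only just, and none was at least 1.5-fold higher (beside 2.82%). Relative to the median gene PFN1 alone remained past 1.5-fold, at -0.61, beside 5.2% of all genes lower and 4.07% higher. Of the others, CALD1 had a ratio above that of 94.7% of all genes and ACTA2 above that of 90.5%. The 3 cytoplasmic actin genes all lay below the median gene, at -0.61 for PFN1, -0.24 for ACTB and -0.036 for ACTG1.

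Between day 3 and day 7, no member of shScr passed 1.5-fold in either direction (beside 3.12% of 4556 genes higher and 3.71% lower, or 2.35% and 4.52% relative to their median of 0.051). In shScr the largest log2 ratios of day 7 to day 3 were 0.46 (0.42 to 0.50) for TPM1, 0.41 (0.37 to 0.45) for CALD1 and -0.31 (-0.34 to -0.27) for MYL9. In shAPC 5176 genes had a median of -0.34. ACTA2 was at least 1.5-fold lower at day 7 (1 of 9, beside 24.1% of all genes tested), by -0.63 (-0.73 to -0.53), and none was at least 1.5-fold higher (beside 0.966%). Without barcodes shared between libraries that ratio was -0.55, which is under 1.5-fold. With all deposited barcodes ACTA2 stood at -0.54 and PFN1 at -0.72, so that the 1 member past 1.5-fold lower was PFN1. The share of all genes past 1.5-fold was not counted in either of these settings, and 24.1% does not apply to them. Relative to the median gene, CALD1 at 0.82 and TAGLN at 0.60 were past 1.5-fold higher (2 of 9, beside 6.67%) and none was past 1.5-fold lower (beside 7.57%). The comparisons at each day and over time share libraries, and so are not independent of each other.

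**Figure D2:**
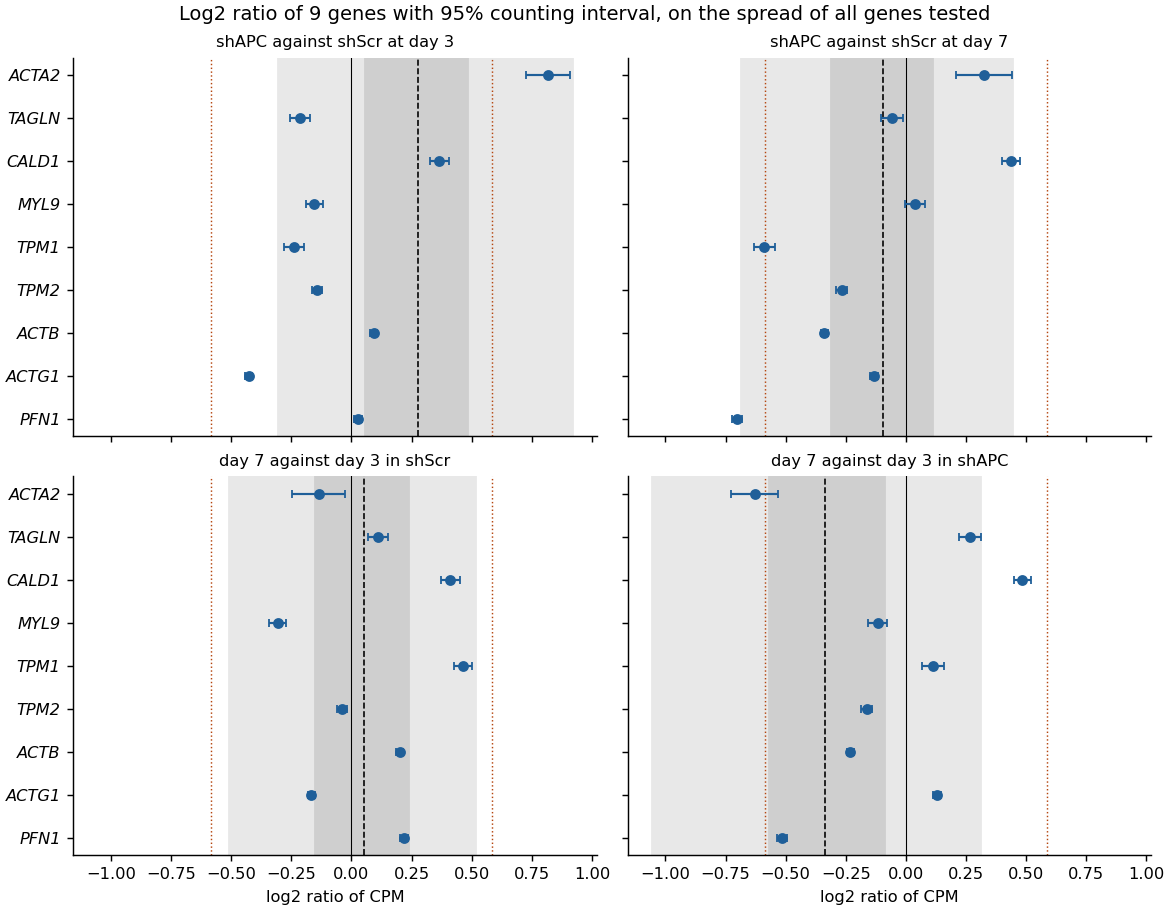
Log2 ratio of CPM for 9 genes in the 4 comparisons, with 95% counting intervals; dark and pale grey mark the middle 50% and middle 90% of all genes tested, the dashed line their median and the dotted lines 1.5-fold. At day 3 ACTA2 lies past 1.5-fold at 0.82, within the pale band, and ACTG1 lies below that band at -0.43; at day 7 PFN1 lies just below it at -0.70. ACTB and PFN1 at day 3 lie close to 0 and turn below it with TMM factors.

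Levels over single cells were compared after every cell had been thinned to 2000 UMIs, which left out 217 and 115 shallower cells of shScr and shAPC at day 3 and 1402 and 391 at day 7. ACTG1 was found in 98.6% of shScr day 3 cells (exact binomial interval 97.5 to 99.2), 89.9% (87.4 to 92.1) of shAPC day 3 cells, 95.9% (94.6 to 97.0) of shScr day 7 cells and 94.8% (93.3 to 96.0) of shAPC day 7 cells. Thus the share was lowest in shAPC day 3, with an interval below those of the other 3 libraries. Its Fano factor, the variance over the mean, was 2.19 for ACTG1 there and 1.70 to 1.81 elsewhere. With cells thinned to 5000 UMIs, where 172 to 1564 cells per library were left out, 95.3% of shAPC day 3 cells and at least 99.2% of the cells of each other library held ACTG1. At that depth 10% of the cells held at most 2 ACTG1 UMIs in shAPC day 3, against 4 to 6 in the others, so that library had a tail of cells with little ACTG1.

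ACTA2 was thinly spread over cells. It was found in 8.57% of shScr day 3, 10.4% of shAPC day 3, 6.34% of shScr day 7 and 8.28% of shAPC day 7 cells at 2000 UMIs, and unthinned in 57.2%, 69.2%, 24.7% and 45.1%. The thinned mean was under 1 UMI per cell in all 4 libraries, so no order was read from these shares. Unthinned, the highest cell held 48 ACTA2 UMIs in shAPC day 3 and 15 to 30 in the others. PFN1 was found at 2000 UMIs in 79.9% (77.3 to 82.2) of shAPC day 7 cells and 90.3% to 91.8% of the cells of the other libraries, and its median at 5000 UMIs was 4 UMIs per cell against 7.

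**Figure D3:**
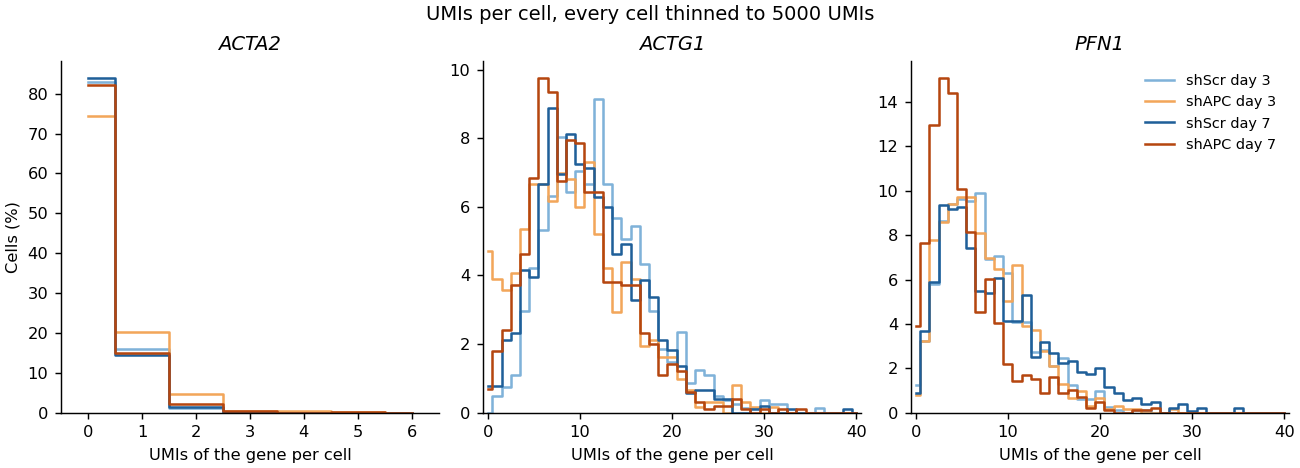
Percent of cells by number of UMIs of ACTA2, ACTG1 and PFN1 per cell, every cell thinned to 5000 UMIs; lines are the 4 libraries. Cells with 0 ACTG1 UMIs are 4.71% of shAPC day 3 and at most 0.772% of each other library, and the PFN1 curve of shAPC day 7 lies to the left of the others, with a median of 4 against 7.

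The tail of shAPC day 3 cells moved with a set of stress genes. The transcripts of ATF3, DDIT3, GADD45A and GADD45B, which cells raise under stress or DNA damage, summed to 877 CPM in shAPC day 3 and 135 to 320 CPM in the other libraries. Cells with at least 5 UMIs of these genes among 5000, a limit set after the data were seen, made up 13.0% (80 of 616) in shAPC day 3. They were 0.371% (3 of 809) in shScr day 3, 3.76% (39 of 1036) in shScr day 7 and 1.91% (19 of 994) in shAPC day 7. Near the limit, 14 shAPC day 3 cells held 4 UMIs and 5 held 5. In shAPC day 3 the stress cells held 359 CPM of ACTG1 against 2067 CPM in the rest, a log2 ratio of -2.53 (-2.59 to -2.47). They held 158 CPM of ACTA2 against 52.8, a log2 ratio of 1.59 (1.47 to 1.70).

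Of the other members in shAPC day 3, TPM1 was higher in the stress cells (361 against 203 CPM), as were PFN1 (2271 against 1312) and TPM2 (1520 against 968), while ACTB was lower (1735 against 2671). In each of the 4 libraries the stress cells held less ACTG1 and more PFN1, TPM2, TAGLN and MYL9 than the rest by pooled CPM, in shScr day 3 from 3 cells. Some medians per cell at 5000 UMIs were equal, as for PFN1 in shScr day 3 (7 and 7). In shAPC day 3 those of TAGLN, TPM1, MYL9 and CALD1 were 1 and 1. The ACTA2 median was 0 in the stress cells and in the rest in all 4 libraries, so its ratio is one of pooled UMIs. The stress cells were also deeper in all 4 libraries, in shAPC day 3 with a median of 83571 UMIs against 54404.5. For ACTG1 the log2 ratio was -1.32 in shScr day 3, from 3 cells, -0.86 in shScr day 7 and -1.34 in shAPC day 7. Over cells thinned to 5000 UMIs, ACTG1 and the summed stress genes had a Pearson's r of -0.58 in shAPC day 3 and -0.07 to -0.21 in the other libraries.

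Leaving the stress cells out, among cells of at least 5000 UMIs, moved the day 3 ratios of shAPC to shScr. These cells were 80 of 616 in shAPC and 3 of 809 in shScr. The direction of the shifts thus follows from the levels in stress cells given above and is no separate result. That of ACTA2 went from 0.83 to 0.38 and no longer passed 1.5-fold, that of ACTG1 from -0.42 to -0.19, and that of TPM1 from -0.23 to -0.42. That of PFN1 went from 0.031 to -0.15. ACTA2 and ACTG1 kept their direction. At day 7 the same step left PFN1 at -0.71, TPM1 at -0.56, CALD1 at 0.46 and ACTA2 at 0.45. What set the number of such cells was not tested.

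**Figure D4:**
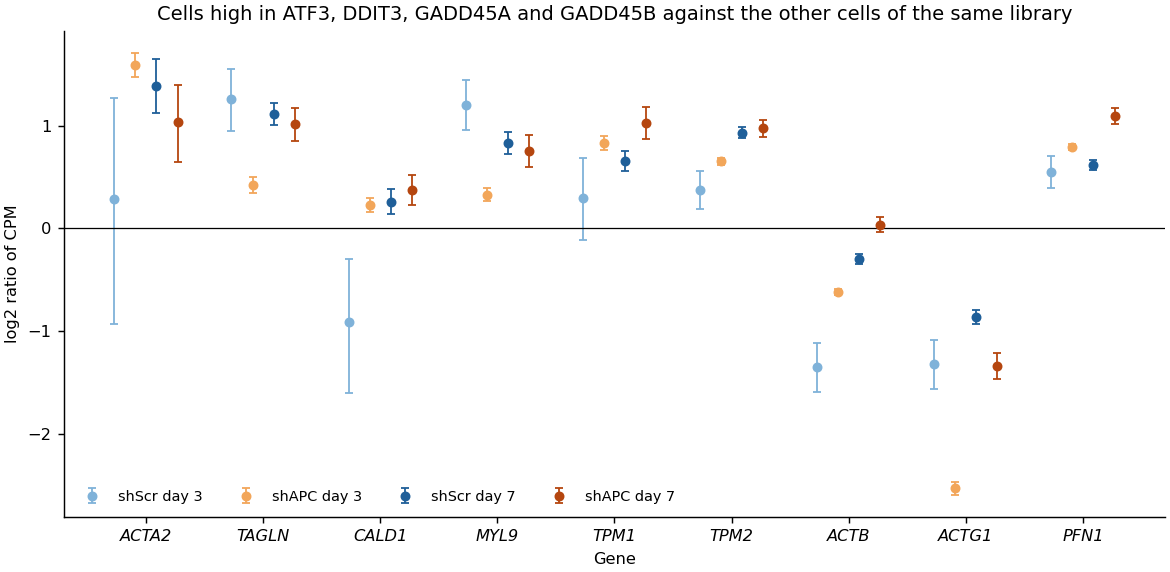
Log2 ratio of CPM of 9 genes in cells high in the stress genes ATF3, DDIT3, GADD45A and GADD45B against the other cells of the same library, with 95% counting intervals; colours are the 4 libraries. ACTG1 lies below 0 in all 4 libraries and lowest in shAPC day 3 at -2.53, and PFN1 and TPM2 lie above 0 in all 4.

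Within a library some members went together from cell to cell. Pearson's r is given as a description over 616 to 1036 cells of equal depth, which share a library, and with no test. ACTB and ACTG1 went together in all 4 libraries, with r of 0.35 to 0.44. Of the smooth muscle type genes, TAGLN went with MYL9 (0.32 to 0.39) and with TPM2 (0.28 to 0.40). ACTA2 had r of -0.16 to 0.12 with every other member but CNN1, but most cells held 0 ACTA2 UMIs at this depth, so nothing was read from these values. ACTG1 and PFN1, both placed in the set named cytoplasmic actin genes above, had r of -0.18 to 0.04. PFN1 was lower in cells with more fibrillar collagen transcript (COL1A1, COL1A2 and COL3A1), with r of -0.17 to -0.37. ACTB had r of 0.18 to 0.25 with the summed G2M markers. At day 7, where PFN1 and ACTB were lower with shAPC, the summed collagens stood at 1454 CPM in shScr and 2690 CPM in shAPC. All 3 collagens were at least 1.5-fold higher (beside 2.82% of all genes tested), with a median log2 ratio of 1.18. The 6 G2M markers summed to 257 and 169 CPM, with a median log2 ratio of -0.54. The part of either in the PFN1 and ACTB ratios was not tested.

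The genes most like the members over cells were ranked among 980 genes of at least 100 CPM. For the summed smooth muscle type genes these were LGALS1 (median r over the 4 libraries 0.46), GAPDH (0.46), ANXA2 (0.42), S100A11 (0.42) and MYL6 (0.41). That sum is weighted to its most abundant member: in shScr day 3 TPM2 gave 47410 of its 95213 UMIs and ACTA2 1620. For the summed cytoplasmic actin genes they were ANXA2 (0.50), MYL6 (0.41), TUBA1B (0.41), CFL1 (0.40) and TPI1 (0.33). MYL6 encodes a myosin essential light chain, CFL1 cofilin, and TUBA1B an alpha tubulin. Of each 5, at least 4 were again among the first 5 with Spearman's rank correlation or with cells thinned to 2000 UMIs.

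The regulators of these genes were mostly of low count. SRF stood at 13.8, 16.9, 12.2 and 13.5 CPM and the cofactor MRTFA at 7.61, 12.0, 7.11 and 7.63 CPM (shScr then shAPC of day 3, then the same of day 7). Both were named outside the naming rule, as the regulators that give the list its name. Of the 7 genes of SRF and its cofactors, 2 were tested at day 3 and 1 at day 7, and none passed 1.5-fold. Over all genes the shares were 17.1% higher and 1.51% lower at day 3, and 2.82% higher and 7.65% lower at day 7. With so few genes tested, nothing was read from this count. ELK3, the most abundant, had a log2 ratio of shAPC to shScr of 0.18 at day 3 and -0.19 at day 7, and ELK1 0.34 at day 3.

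Of 13 genes that bind actin monomers or turn filaments over, 1 was at least 1.5-fold higher with shAPC at day 3 (ARPC3) and 2 were lower (CAP1 and PFN2), and at day 7 none was higher and 3 were lower (CAP1, PFN2 and CFL2). Over all genes the shares were 17.1% higher and 1.51% lower at day 3, and 2.82% higher and 7.65% lower at day 7. Relative to the median of all genes ARPC3 no longer passed at day 3 (beside 5.93% of all genes higher). On that scale 3 genes of the list were lower at day 3 (beside 4.99%) and 1 at day 7 (beside 5.2%). CAP1, a cyclase-associated protein that recycles actin monomers, stood at 276 and 121 CPM at day 3 and 273 and 104 CPM at day 7, log2 ratios of -1.19 (-1.24 to -1.14) and -1.39 (-1.46 to -1.33). PFN2, a second profilin, had -0.64 and -0.66. TMSB10 and TMSB4X, thymosins that hold monomers and the most abundant of the list, had ratios of -0.12 and -0.30 at day 3 and -0.050 and -0.29 at day 7.

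Of 4 matricellular and related SRF and YAP targets, THBS1 was at least 1.5-fold lower with shAPC at day 3, and THBS1, CYR61 and ANKRD1 at day 7 (beside 1.51% and 7.65% of all genes lower). Relative to the median of all genes 2 of the 4 were lower at day 3 (beside 4.99%) and 3 at day 7 (beside 5.2%). THBS1, thrombospondin 1, stood at 34.8 and 9.41 CPM at day 3 and 68.0 and 27.0 CPM at day 7, log2 ratios of -1.88 (-2.06 to -1.71) and -1.33 (-1.46 to -1.21). CYR61 and CTGF, the most abundant, had -0.070 and -0.28 at day 3 and -0.69 and -0.40 at day 7. The list median was -0.38 at day 3 and -1.01 at day 7, beside medians of 0.28 and -0.10 over all genes.

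Of 6 immediate early SRF targets, 3 were tested. EGR1, JUNB and IER2 were each at least 1.5-fold higher with shAPC at day 3 (beside 17.1% of all genes), with a median of 1.28. None passed at day 7 (beside 2.82% of all genes higher and 7.65% lower), with a median of 0.068. Relative to the median of all genes 2 of the 3 passed at day 3 (beside 5.93%). EGR1 stood at 35.7 and 86.7 CPM at day 3 and 55.6 and 62.2 CPM at day 7. These genes were high in the library that also held the most stress cells; the part of those cells in this was not tested.

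Structural neighbours of the members were counted in the same way. Over all genes the shares were 17.1% higher and 1.51% lower at day 3, and 2.82% higher and 7.65% lower at day 7. Of 11 further smooth muscle contractile genes 3 were tested, SMTN, CSRP1 and TGFB1I1, and none passed 1.5-fold on either day. Of 9 tested tropomyosins, calponins and myosin chains, none passed at day 3 and MYL12A and MYL12B were lower at day 7 (2 of 9, beside 7.65% of all genes). Relative to the median of all genes 1 of the 9 was lower on each day (beside 4.99% and 5.2%). MYL6 and TPM4, the most abundant, had ratios of -0.043 and 0.27 at day 3 and -0.45 and -0.030 at day 7. Of 11 crosslinking and adhesion genes none passed at day 3 and LIMA1 and PDLIM5 were lower at day 7 (2 of 11, beside 7.65% of all genes), with FLNA at 0.13 and 0.17 and FHL2 at 0.20 and -0.33. Of the TGF-beta ligands and responders, LTBP2 was lower at day 3 (1 of 4 tested, beside 1.51% of all genes). At day 7 TGFBI was higher, with a log2 ratio of 0.97 (1 of 3 tested, beside 2.82% of all genes). Genes named in these lists beyond the naming rule were chosen after their values were seen.

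**Figure D5:**
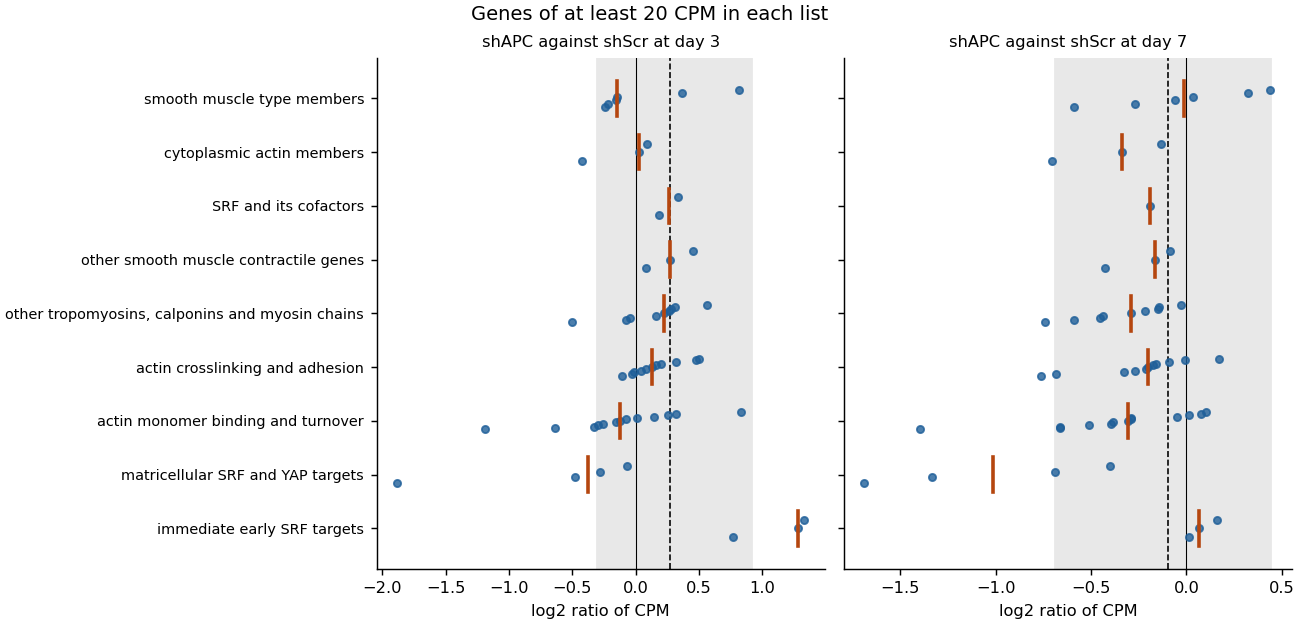
Log2 ratio of shAPC to shScr at day 3 and day 7 for the genes of at least 20 CPM in each of 9 lists; points are genes, red bars list medians, the grey band the middle 90% of all genes tested and the dashed line their median. The matricellular targets lie lowest on both days, with medians of -0.38 and -1.01, and the immediate early targets lie highest at day 3, with a median of 1.28, and near 0 at day 7.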

How the data were processed

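Raw UMI counts per gene and barcode were deposited for the 4 libraries. The authors had made these counts from 10x Genomics 3′ reads on GRCh38 with Cell Ranger, whose version in the file headers was 3.0.2 for shScr and 3.0.0 for shAPC, while the labels give 3.0.2. The version and the shRNA cannot be told apart. Labels and methods differ on the kit chemistry and the virus.

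Kept barcodes had 200 or more genes, 500 or more UMIs and less than 5% mitochondrial UMIs. No doublets were removed. Counts were summed per library and divided by all kept UMIs (CPM), with exact Poisson 95% intervals, and ratios had conditional Clopper-Pearson intervals. These cover error of counting only. Across genes, log2(CPM + 1) was compared where either library reached 20 CPM, and a difference past 1.5-fold was called. Named genes were the members, APC, the 2 most abundant of each pathway list, those past 1.5-fold in 1 direction on both days, and the 5 most like each sum of members. Some genes and 1 list that this rule names are not reported here. The members and lists were chosen with earlier results of these data known. Groups came from the labels. No test was run, since each group is 1 library. The ratio and thinning steps were tested on simulated data. Alternatives were edgeR 4.0.16 TMM factors, DESeq2 1.42.0 size factors, other totals, pseudocounts, cell limits and depths, a mean over cells and a fold of 2. Python 3.11.15, numpy 2.4.6, scipy 1.17.1, pandas 2.3.3 and R 4.3.3 were used.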

Additional observations from a re-analysis of the deposited data

Results flagged for a closer look

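With shAPC against shScr, ACTB had a log2 ratio of 0.092 at day 3 and -0.34 at day 7, and PFN1 had 0.028 at day 3 and -0.70 at day 7. These were picked out because the direction differed between the days with both counting intervals clear of 0. Over time, ACTB had a log2 ratio of day 7 to day 3 of 0.20 in shScr and -0.23 in shAPC, PFN1 had 0.22 and -0.51, and ACTG1 had -0.17 and 0.13. Each of these 5 differences was not tested, since every group is 1 library, and the day 3 values of ACTB and PFN1 turn below 0 with TMM factors. The day 7 to day 3 ratio of ACTB in shAPC turned above 0, to 0.074, with TMM factors, and that of ACTG1 turned below 0, to -0.086, in cells of at least 5000 UMIs without stress cells, so that its direction was then the same with either shRNA.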

How the results depend on the processing

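No paired analysis was possible because each group holds 1 library. At day 3 the number of members at least 1.5-fold higher with shAPC went from 1 to 0 with TMM factors, DESeq2 size factors, values relative to the median of all genes, a fold of 2 and without stress cells. The number lower went from 0 to 3 with TMM factors, 2 with DESeq2 size factors, 2 in cells under 2000 UMIs and 1 relative to the median. TMM factors moved the day 3 log2 ratio of every gene by -0.38, and DESeq2 size factors by -0.36. Of the alternatives in this paragraph, the share of all genes past 1.5-fold was counted only relative to the median. The other counts thus have no such share beside them, and the main shares do not apply to them. At day 7 the number lower went from 2 to 1 with totals without mitochondrial and ribosomal protein genes and with minimums of 2000 UMIs or 2000 genes. It was also 1 in only cells under 2000 UMIs, in cells of at least 5000 UMIs, without stress cells and relative to the median. With a fold of 2 it was 0, and with the mean over cells it was 3, where TPM2 was also past. In cells under 2000 UMIs the member that remained was TPM1, at -0.90, and the number higher went from 0 to 1. From day 3 to day 7 in shScr the number higher went from 0 to 2 with the mean over cells and to 1 in cells under 2000 UMIs. In shAPC the number higher went from 0 to 1 with TMM factors, DESeq2 size factors and totals without mitochondrial and ribosomal protein genes, and to 2 relative to the median. The number lower in shAPC went from 1 to 0 with those 3, the mean over cells, without the 5% of cells with the most UMIs, without shared barcodes, only cells under 2000 UMIs, without stress cells, relative to the median and with a fold of 2. It was still 1 with a mitochondrial limit of 10% or all deposited barcodes, but the member was PFN1 in place of ACTA2. CNN1 over time in shAPC turned to -1.47 in cells under 2000 UMIs, from 1 UMI in each library. The cause of these moves was not tested. Settings for cells under 2000 or of at least 5000 UMIs, shared barcodes and stress cells were chosen after seeing the data. Depth limits CNN1, and the spread between repeat libraries is unknown. Of 120 shares of cells with a UMI at other thinning depths or none, 111 left the interval of the share at 2000 UMIs. No median correlation over the pairs of a set of members moved by 0.1 or more. Single pairs moved further, as ACTB and ACTG1 from 0.44 to 0.28 in shScr day 7 with cells thinned to 2000 UMIs.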
